A study of Mus musculus with 10 samples.

Results

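Fc receptors are the proteins through which cells bind the constant part of antibodies, and 6 genes of this system were measured in hippocampal microglia, the resident macrophages of brain tissue. The genes were chosen by name: Fcgr1, Fcgr3 and Fcgr4 (activating IgG receptors), Fcer1g (their shared signalling chain), Fcgr2b (the inhibitory IgG receptor) and Fcgrt (the neonatal Fc receptor, FcRn). They are 6 of the 545 endogenous genes on an nCounter mouse immune panel, which counts a fluorescent barcode for each probe bound to its target, here amplified cDNA. The cells were sorted from male Balbc pups on postnatal day 14, 5 of them controls (pups 1, 18, 40, 52 and 69) and 5 exposed to brief daily separation, BDS (pups 11, 17, 24, 38 and 59). BDS pups were kept away from the dam for 15 min a day, on a schedule running from postnatal day 1 to 21 that was not yet over at collection. Each pup came from its own litter and gave 1 lane, and the labels do not say how the controls were handled.

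Activating Fc gamma receptors sit in the membrane with the gamma chain encoded by Fcer1g, whose cytoplasmic tail carries an activation motif (ITAM) that recruits the kinase Syk and starts phagocytosis and the oxidative burst when IgG complexes bind. Fcgr2b carries an inhibitory motif (ITIM) instead and recruits phosphatases, so the balance of activating and inhibitory receptors sets how strongly a macrophage answers to IgG. FcRn is built differently, as an MHC class I-like chain paired with beta-2 microglobulin (B2m), and rescues IgG and albumin from lysosomal breakdown. In the RefSeq annotation of the mouse genome, Fcgr2b, Fcgr4, Fcgr3 and Fcer1g lie in that order on chromosome 1, with other genes between them, while Fcgr1 is on chromosome 3 and Fcgrt on chromosome 7. All 6 probe accessions matched 1 RefSeq gene each, with the symbol the panel gives.

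The proximal promoters of the activating receptor genes are shown because they carry letters known from myeloid and interferon-inducible promoters. GAGGAA, read on both strands (TTCCTC on the other), is the core of sites bound by the myeloid factor PU.1, and TTCNNNGAA, its own reverse complement, is the letter pattern of gamma-activated sites in interferon-inducible promoters. The 250 bases before the first listed start of each gene were searched. GAGGAA was found in 3 of the 6 genes and in 23.1% of 27025 promoters of that length. TTCNNNGAA was found in 1 of the 6 and in 7.18% of all. Capitals mark the matches, which do not overlap each other, in the stretches that hold them, from RefSeq, build GRCm38.p6. The Fcgr1 stretch is chr3:96294004-96294093 on the minus strand, the Fcgr3 stretch chr1:171059404-171059424 on the minus strand and the Fcgr4 stretch chr1:171018889-171018924 on the plus strand.
Fcgr1: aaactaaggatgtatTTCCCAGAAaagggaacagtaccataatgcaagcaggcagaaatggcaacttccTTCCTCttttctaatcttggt
Fcgr3: agagagtccatttccTTCCTC
Fcgr4: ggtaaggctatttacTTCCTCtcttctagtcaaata
In Fcgr1 the TTCNNNGAA match lies 109 to 101 bases before the start and the TTCCTC match 55 to 50 bases before it. The TTCCTC match lies 6 to 1 bases before the start in Fcgr3 and 22 to 17 bases before it in Fcgr4. Neither pattern is in the window searched for Fcgr2b, Fcer1g or Fcgrt.

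Lanes differed widely in signal. Endogenous counts ran from 76237 to 802033 in control lanes and from 341679 to 968930 in BDS lanes. The housekeeping signal, the geometric mean of the raw counts of Alas1, Gapdh, Oaz1, Polr1b, Sdha and Tbp, averaged 497 ± 377 over control lanes and 931 ± 301 over BDS lanes (SD, n = 5 each), lowest in control 52 (113) and control 69 (212) and highest in BDS 17 (1254). Values below are normalized counts, that is raw counts over the housekeeping signal of their lane, brought back to the count scale, and log2 fold changes are BDS minus control from edgeR's quasi-likelihood fit to raw counts of the 283 genes above the negative-control limit in at least 4 lanes. Fcgr1, Fcgr2b, Fcgr3, Fcer1g and Fcgrt were above that limit in 10 of 10 lanes and Fcgr4 in 9, so all 6 were tested. Fewer cells of a type and less RNA per cell cannot be told apart in such sorted bulk samples. All 14 microglia identity genes on the panel, among them Cx3cr1, Csf1r and Trem2, were tested, and together they took 35.9 to 42.9% of endogenous counts in control lanes and 37.0 to 41.4% in BDS lanes. Of the 14, 7 had an unadjusted edgeR p under 0.05, beside 28.3% of the 283 genes, and 0 passed the adjusted p. C1qa, Ctss, Ikzf1 and Ptprc were higher in BDS pups and Cx3cr1, Itgam and Tgfbr2 lower. Cx3cr1 was at -0.63 and below the control mean in all 5 BDS lanes, as were 23.3% of tested genes.

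Among the Fc receptor genes Fcgr2b and Fcgr1 had higher values in BDS pups and Fcgr3 lower ones, whereas the means of Fcer1g, Fcgr4 and Fcgrt lay within the spread between pups. At an adjusted p of 0.05 the quasi-likelihood test of edgeR called none of the 6, and 0% of the 283 genes. At an unadjusted edgeR p under 0.05 the 3 first-named genes differed, 2 higher and 1 lower, against 28.3% of all tested genes (80 of 283), 19.4% higher and 8.83% lower. In 0 of the 6 did the values of the groups fail to overlap, against 4.59% of tested genes. The median log2 fold change was -0.046 over the 6 and 0.089 over all 283. Limma without sample weights called 0 genes as well. Fcgr3 was called under 7 of 30 alternatives, each of which also called other genes: DESeq2 (8.83% of tested genes called), limma with sample weights (30%), housekeeping means without Gapdh (4.24%) or without Polr1b (5.3%), only genes above the limit in all 10 lanes (5.08% of 197), and fits without control 40 (17%) or without BDS 11 (6.71%). Fcgr1 was called by limma with sample weights and without control 40, Fcgr2b by limma with sample weights, and the other 3 members under none of the alternatives.

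**Figure D1:**
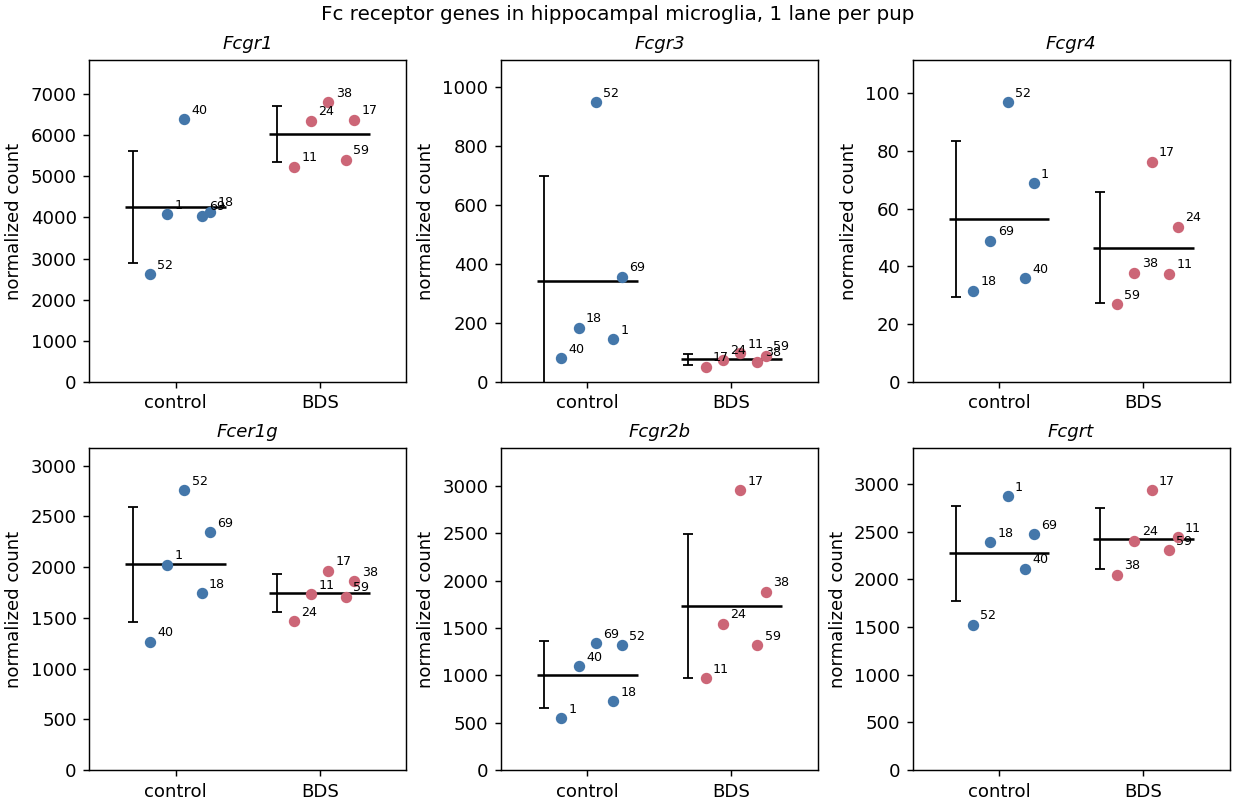
Normalized counts (y axis, linear, from 0) of the 6 Fc receptor genes in control and BDS lanes; each point is 1 pup with its number, the horizontal line is the group mean and the vertical bar the SD (n = 5; the lower end of the Fcgr3 control bar falls below 0 and is not drawn). For Fcgr3 control 52 stands at 949 and control 69 at 356, the 2 lanes of lowest signal, whereas the BDS lanes lie between 51.0 and 98.0.

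Fcgr1 encodes the high-affinity IgG receptor CD64, which binds single IgG molecules and is induced by interferon-gamma. It stood at 4071, 4135, 6391, 2611 and 4044 normalized counts in control pups 1, 18, 40, 52 and 69. In BDS pups 11, 17, 24, 38 and 59 it stood at 5235, 6373, 6354, 6805 and 5399. All 5 BDS lanes lay above the control mean, as for 25.8% of tested genes, but control 40 was higher than 4 of the 5 BDS lanes, and the groups overlapped. The means were 4251 ± 1356 and 6033 ± 681 (SD, n = 5 each), which is 0.50 ± 0.21 as a log2 fold change (SE; by edgeR, adjusted p = 0.149). Over 30 alternatives by edgeR, DESeq2 or limma the adjusted p was 0.0305 to 0.587. The log2 fold change was 0.16 with lane signal as a covariate and 0.31 without control 52 and 69, the lanes of lowest signal.

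Fcgr3 encodes CD16, an activating receptor of low affinity that binds IgG complexes. Its normalized counts were 145, 184, 80.5, 949 and 356 in control pups 1, 18, 40, 52 and 69. In BDS pups 11, 17, 24, 38 and 59 they were 98.0, 51.0, 74.6, 67.8 and 88.7. The BDS lanes lay close together and below the control mean, as for 23.3% of tested genes, while the control lanes spanned a wide range, and control 40 lay below BDS 11 and BDS 59. The log2 fold change came to -2.12 ± 0.53 (SE; by edgeR, adjusted p = 0.0642), and 1 of the 283 genes had a lower value. Over 30 alternatives by edgeR, DESeq2 or limma the adjusted p was 0.00327 to 0.866. The log2 fold change was -1.30 without control 52, -0.85 without control 52 and 69, -0.73 without BDS 17 as well, and -0.49 with lane signal as a covariate.

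Raw counts of Fcgr3 barely followed the lanes. They were 116, 204, 148, 186 and 131 in control pups 1, 18, 40, 52 and 69, and 81, 111, 129, 131 and 125 in BDS pups 11, 17, 24, 38 and 59. The highest was 2.52 times the lowest, whereas the housekeeping signal varied 11.1 times and the median tested gene 14.8 times. On the log2 scale the raw count of a gene in proportion to lane signal has a slope of 1 against the housekeeping signal. For Fcgr3 the slope was -0.0865 over 10 lanes, -0.0263 within control lanes and 0.412 within BDS lanes, against medians of 1.02, 0.931 and 1.14 over all tested genes. Of the other 282 tested genes 1 had a lower slope over 10 lanes, Tnfrsf13b at -0.271. Fcgr3 was above the general background of the lanes, with raw counts 4.36 to 9.41 times the negative-control limit of their lane. The negative controls do not measure background particular to the Fcgr3 probe, which was not tested. The slopes over 10 lanes were 1.36 for Fcgr1, 1.18 for Fcgr2b, 1.11 for Fcgrt, 0.777 for Fcer1g and 0.739 for Fcgr4, and what lane signal contributes to each difference between groups was not tested beyond the covariate fit.

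**Figure D2:**
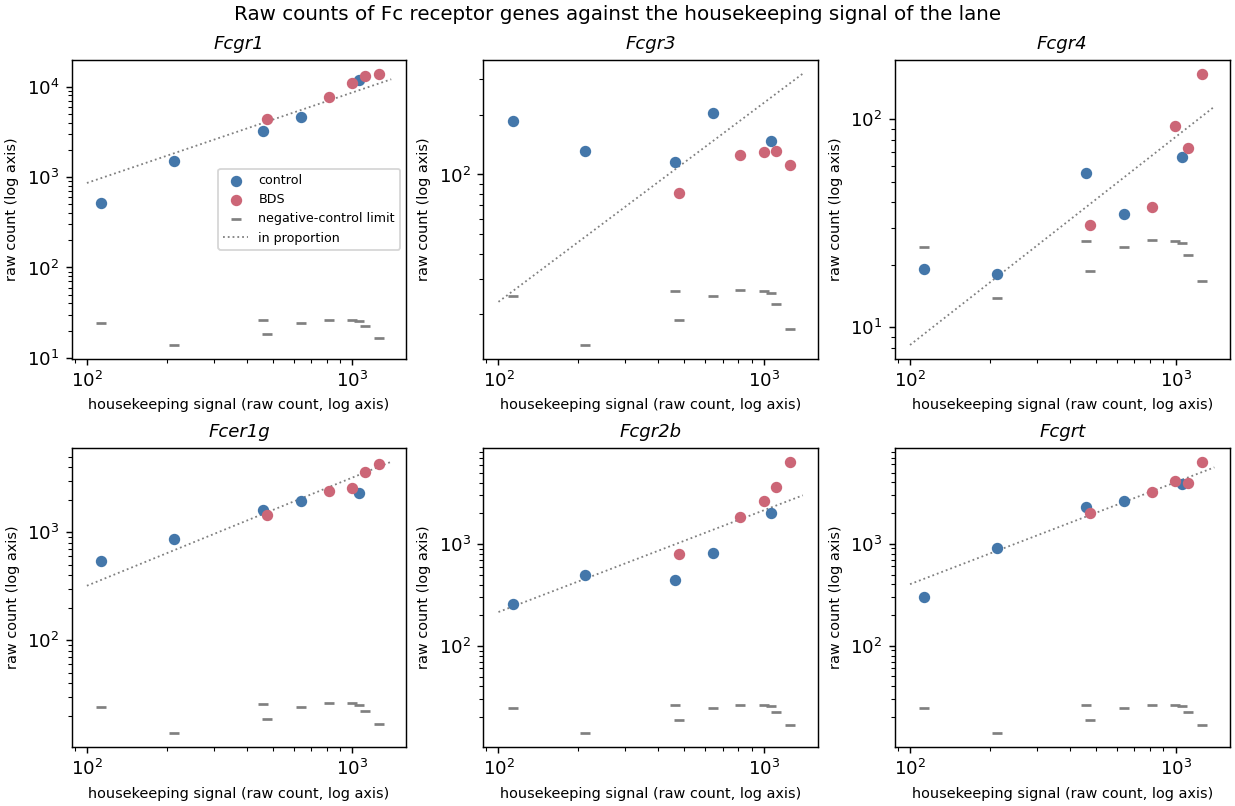
Raw counts of the 6 Fc receptor genes (y axis, log scale) against the housekeeping signal of the lane (x axis, raw count, log scale); points are pups, grey dashes the negative-control limit of each lane, and the dotted line a count in proportion to the housekeeping signal. Fcgr3 stays between 81 and 204 raw counts in all 10 lanes, while Fcgr1 runs from 512 to 13870.

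Fcgr4, an activating receptor of mouse myeloid cells for IgG2 subclasses, was measured near background. Its raw counts ran from 18 to 166, and in control 52 the count of 19 was under that lane's limit of 24.4. Normalized counts were 68.7, 31.5, 35.9, 96.9 and 48.9 in control pups 1, 18, 40, 52 and 69 and 37.5, 76.3, 53.8, 37.8 and 27.0 in BDS pups 11, 17, 24, 38 and 59. High and low values occurred in both groups, and the log2 fold change, -0.18 ± 0.36 (SE; by edgeR, adjusted p = 0.761), turned to 0.16 once the negative-control mean was subtracted.

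Fcer1g, the gamma chain on which surface expression of the activating receptors depends, stood at 2023, 1743, 1264, 2759 and 2344 normalized counts in control pups 1, 18, 40, 52 and 69. The BDS values were 1731, 1964, 1467, 1858 and 1709 in pups 11, 17, 24, 38 and 59. All 5 BDS lanes lay within the control range and below its mean, and in 23.3% of tested genes all 5 lay below the control mean. The log2 fold change came to -0.21 ± 0.21 (SE; by edgeR, adjusted p = 0.506), or 0.16 with lane signal as a covariate and 0.059 without control 52 and 69.

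Fcgr2b, the inhibitory receptor CD32B, was the member with the highest fold change toward BDS. Its normalized counts were 550, 729, 1098, 1321 and 1339 in control pups 1, 18, 40, 52 and 69. In BDS pups 11, 17, 24, 38 and 59 they were 969, 2957, 1543, 1884 and 1318. BDS 17, 24 and 38 exceeded every control lane, and BDS 11 and 59 lay within the control range. The means were 1007 ± 355 and 1734 ± 760 (SD, n = 5 each), which is 0.79 ± 0.31 as a log2 fold change (SE; by edgeR, adjusted p = 0.132). Over 30 alternatives by edgeR, DESeq2 or limma the adjusted p was 0.0248 to 0.372. The log2 fold change was 0.84 with lane signal as a covariate (edgeR adjusted p = 0.372) and 1.13 without control 52 and 69 (edgeR adjusted p = 0.0953), but 0.51 without BDS 17.

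Fcgrt, the heavy chain of FcRn, had means of 2274 ± 499 in control and 2427 ± 323 in BDS lanes (SD, n = 5 each). Normalized counts were 2870, 2387, 2112, 1525 and 2474 in control pups 1, 18, 40, 52 and 69 and 2439, 2934, 2406, 2048 and 2306 in BDS pups 11, 17, 24, 38 and 59. The log2 fold change came to 0.09 ± 0.19 (SE; by edgeR, adjusted p = 0.769), and its sign turned under 3 of 10 other scalings. B2m, the light chain FcRn shares with MHC class I, was at 3235 ± 1126 and 3804 ± 1465 (SD, n = 5 each), which is 0.24 ± 0.27 as a log2 fold change (SE; by edgeR, adjusted p = 0.57). Without BDS 17 it was -0.030.

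Of the 10 other scalings tried, all kept Fcgr1 and Fcgr2b higher and Fcgr3 lower in BDS pups. Fcgr4 and Fcer1g stayed lower in 9 and turned with scaling to the positive control probes alone, which put 281 of the 283 genes higher and moved the median log2 fold change of all genes from 0.089 to 1.35. That scaling put Fcgr3 at -0.11. TMM moved the median to -0.039 and a housekeeping mean without Sdha to -0.088.

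**Figure D3:**
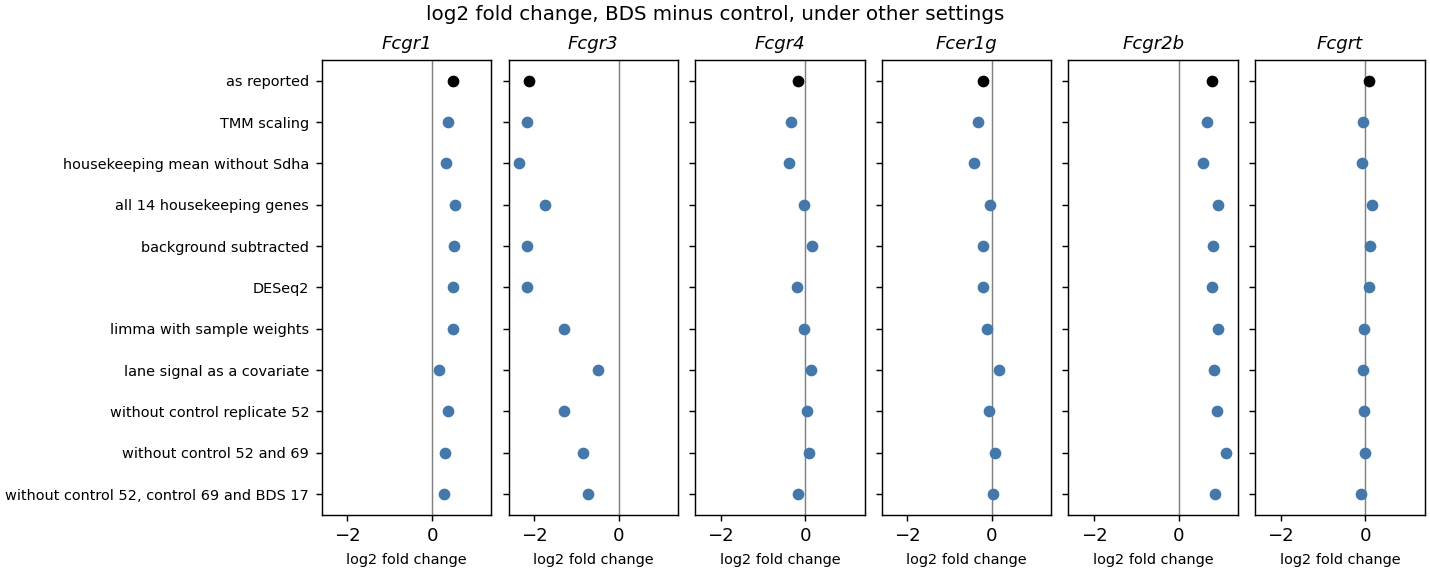
log2 fold change, BDS minus control (x axis), of the 6 Fc receptor genes as reported (black) and under 10 other settings (blue, 1 per line); the vertical line marks 0. Fcgr2b stays between 0.58 and 1.13 in the settings drawn, whereas Fcgr3 moves from -2.12 to -0.49 with lane signal as a covariate.

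Lanes of similar housekeeping signal allow a direct look at raw counts. Control 1 and BDS 11 had signals of 461 and 477, and control 40 (1060) fell between BDS 24 (997) and BDS 38 (1113). Fcgr2b was higher in the BDS lane in each case, with 440 raw counts in control 1 against 801 in BDS 11, and 2019 in control 40 against 2669 in BDS 24 and 3637 in BDS 38. Fcgr3 was lower in each, with 116 against 81, and 148 against 129 and 131. Fcgr1 had 3259 against 4328 raw counts in the first pair, whereas its 11757 in control 40 lay between 10988 and 13139. Fcer1g had 1619 against 1431 and 2326 against 2537 and 3588. Fcgrt had 2297 against 2016 and 3886 against 4161 and 3955, and Fcgr4 had 55 against 31 and 66 against 93 and 73. The pairs were picked by housekeeping signal after the lanes were seen, and too few lanes match for a test.

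Ratios between genes of the same lane do not depend on the lane's scale factor, and the balance of activating to inhibitory receptors is such a ratio. A ratio can still change with lane signal where its genes have unlike slopes against that signal. Fcgr3 has such a slope beside the other members, and those of Fcgr4 and Fcer1g are lower than those of Fcgr1 and Fcgr2b. Fcgr3, Fcgr4 and Fcer1g were each lower relative to Fcgr2b in BDS pups, with all 5 BDS lanes below the control mean, while the ratio of Fcgr1 to Fcgr2b did not differ beyond the spread between pups. The ratio of Fcgr3 to Fcgr2b raw counts was 0.265, 0.253, 0.0738, 0.719 and 0.267 in control pups 1, 18, 40, 52 and 69, and 0.102, 0.0174, 0.0487, 0.0363 and 0.0678 in BDS pups 11, 17, 24, 38 and 59. Only control 40 lay among the BDS values. On the log2 scale the difference was -2.42, from -2.01 ± 1.17 to -4.43 ± 0.966 (SD, n = 5 each; exact two-sided permutation p = 0.0159, adjusted p = 0.0635 over 8 ratios). For Fcgr4 to Fcgr2b it was -1.03 and for Fcer1g to Fcgr2b -0.93 (exact permutation p = 0.0397 and adjusted p = 0.0635 each). The Fcgr4 counts in that ratio are near background, and under the limit in control 52. Fcgr1 to Fcgr2b had a log2 difference of -0.21 (exact permutation p = 0.603), with 4.29 in control and 3.72 in BDS lanes as geometric means of the ratio. That spread came largely from control 52 and 69, at log2 ratios of 0.98 and 1.59. Without them the difference was -0.75, and control 1, 18 and 40 (2.50 to 2.89) lay above all BDS lanes (1.11 to 2.43).

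The ratio of Fcgr3 to the chain it pairs with, Fcer1g, separated the groups. It was 0.0722, 0.106, 0.0640, 0.345 and 0.153 in control pups 1, 18, 40, 52 and 69 and 0.0573, 0.0262, 0.0512, 0.0368 and 0.0523 in BDS pups 11, 17, 24, 38 and 59. Every BDS lane lay below every control lane, though control 40 and BDS 11 were close. The log2 difference was -1.49 (exact two-sided permutation p = 0.00794, the smallest that 252 assignments allow; adjusted p = 0.0635 over 8 ratios). Fcgr1 to Fcgr3 differed by 2.22 on the log2 scale (exact permutation p = 0.0238, adjusted p = 0.0635), Fcgr1 to Fcer1g by 0.73 (exact permutation p = 0.111) and Fcgrt to B2m by -0.11 (exact permutation p = 0.778). None of the 8 passed an adjusted p of 0.05, and 5 had an unadjusted exact permutation p under it. Each of those 5 holds Fcgr3 or Fcgr2b, so they are not independent. Ratios of other panel genes were not computed, so how often such values occur over the panel is not known. In a linear model with lane signal as a covariate, added after the data were seen and given without a test, the log2 differences were -1.28 for Fcgr3 to Fcgr2b, -0.72 for Fcgr4 to Fcgr2b, -0.65 for Fcer1g to Fcgr2b, -0.63 for Fcgr1 to Fcgr2b and -0.63 for Fcgr3 to Fcer1g. In the same model Fcgr1 to Fcgr3 was at 0.65, Fcgr1 to Fcer1g at 0.023 and Fcgrt to B2m at -0.53. Without control 52 and 69, Fcgr3 to Fcgr2b was at -1.88, Fcgr3 to Fcer1g at -0.87, Fcgr1 to Fcgr3 at 1.13, Fcgr1 to Fcer1g at 0.26 and Fcgrt to B2m at -0.57, without the covariate.

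**Figure D4:**
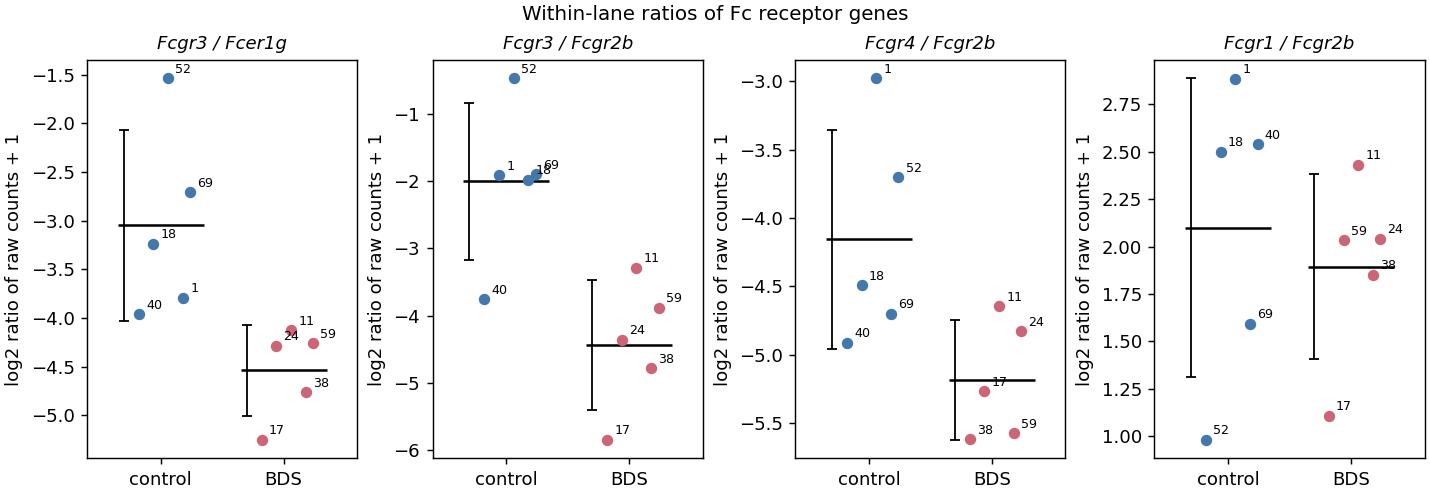
Within-lane ratios of raw counts (y axis, log2 of raw count + 1 over raw count + 1) for Fcgr3 to Fcer1g and for Fcgr3, Fcgr4 and Fcgr1 to Fcgr2b; points are pups with their numbers, lines group means and bars SD (n = 5 each). For Fcgr3 to Fcer1g the control lanes lie between -3.97 and -1.54 and the BDS lanes between -5.25 and -4.13.

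The authors' deposited table lists all 6 genes as above background in 100% of samples. In the authors' deposited table the ratio of BDS to control means is 1.27 for Fcgr1, 1.49 for Fcgr2b, 0.19 for Fcgr3, 0.71 for Fcgr4, 0.74 for Fcer1g and 0.94 for Fcgrt. The unadjusted p that the authors' deposited table gives is 0.0583 for Fcgr1, 0.174 for Fcgr2b and 0.136 for Fcgr3. The directions match those above but for Fcgrt.

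Genes downstream of the receptors were read from lists. Of 22 listed genes of ITAM signalling 8 were on the panel and tested, 5 higher and 3 lower in BDS pups, with a median log2 fold change of 0.21 and 0 passing the adjusted p. The 283 tested genes split into 158 higher and 125 lower, with a median of 0.089, and 28.3% had an unadjusted edgeR p under 0.05, against 3 of these 8. At an unadjusted edgeR p under 0.05, the Src-family kinase Fyn (log2 fold change 0.96 ± 0.25) and the adaptor Lcp2, also called SLP-76 (0.86 ± 0.23), were higher and the kinase Src was lower (-0.61 ± 0.22; SE, edgeR adjusted p from 0.0642 to 0.126). Prkcd, a protein kinase C that acts after Syk, was at 0.25 ± 0.16. The phosphatase gene Ptpn6 (SHP-1), which ITIM receptors recruit, was at -0.23 ± 0.17 and the lymphoid phosphatase gene Ptpn22 at 0.25 ± 0.29. These were the 2 of 10 listed inhibitory genes on the panel. With positive control scaling Src and Ptpn6 turned. Of the phagocyte oxidase that IgG receptors activate, Cybb exceeded the limit in 0 lanes and Ncf4 was tested, at 0.89 ± 0.25 (edgeR adjusted p = 0.0706).

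All 18 listed cytokine genes that regulate Fc receptors, or their receptors and factors, were on the panel and 15 were tested, 9 higher and 6 lower, with a median of 0.21, 0 passing the adjusted p and 6 with an unadjusted edgeR p under 0.05 (3 higher, 3 lower), again beside 28.3% of all tested genes, their median of 0.089 and their split of 158 to 125. Il4ra, a receptor chain for interleukin-4, which raises inhibitory receptor levels in macrophages, was at 0.83 ± 0.36 (0.84 with lane signal). With a pup left out Il4ra ran from 0.50 to 1.05 (edgeR adjusted p from 0.0639 to 0.381). Csf1 was at 0.91 ± 0.24, and Tgfbr2, a receptor chain for TGF-beta, at -0.35 ± 0.15 (0.85 with positive control scaling). Of 9 listed other genes of antibody binding, 3 were on the panel, Fcer1a, Fcamr and Pigr, and each exceeded the limit in 0 lanes. The IgE, IgA/IgM and polymeric immunoglobulin receptors they encode were thus not detectable here.

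Fc receptors are also made by other leukocytes, whose markers were mostly at background. Of 12 B cell genes 4 were tested, 1 higher and 3 lower in BDS pups, with a median log2 fold change of -0.75. Tnfrsf13b and Tnfrsf17 were lower at an unadjusted edgeR p under 0.05. Blnk, with the highest counts of the list (196 to 3289 raw), was higher, at 0.40. Its 5 BDS lanes all lay above the control mean, as for 25.8% of tested genes. Another 7 B cell genes exceeded the limit in 0 lanes, among them Ms4a1 and Pax5. The summed share of the list was 0.257 to 0.492% of endogenous counts in control lanes and 0.323 to 0.429% in BDS lanes. Of 8 natural killer genes on the panel, Klrd1, Gzmb and Eomes were above the limit in 0 lanes and 2 were tested (Klrk1 and Prf1), with a share of 0.0295 to 0.0538% and 0.0274 to 0.0349%. Of 7 neutrophil genes Cxcr1, Ltf and Camp were above it in 0 lanes and Csf3r was tested. Their share was 0.352 to 0.912% in control and 0.241 to 0.427% in BDS lanes, and nearly all of it was Csf3r (log2 fold change -0.77). In control 1 Csf3r had 2061 raw counts and each of the other neutrophil genes 1 to 15. The mast cell genes Fcer1a and Kit exceeded the limit in 0 lanes, and Ccr2 was the 1 tested of 4 monocyte and border macrophage genes (share 0.0156 to 0.0433% and 0.0240 to 0.0329%). Among the other lists 1 of 11 T cell genes (Cd40lg, at -0.96 with groups that did not overlap, as in 4.59% of tested genes, above the limit in 4 lanes), 1 of 5 dendritic cell genes (Batf3) and 3 of 3 endothelial genes were tested. Cd40lg was under the limit in control 1, 18 and 52, and its 8 raw counts in control 52 became 40.8 normalized counts. The T cell share was 0.0249 to 0.104% in control and 0.0165 to 0.0260% in BDS lanes, the dendritic cell share 0.0208 to 0.0905% and 0.0220 to 0.0354%, and the endothelial share 0.184 to 0.394% and 0.212 to 0.259%. For the T cell, natural killer, monocyte and dendritic cell lists the highest control share was that of control 52, the lane of fewest counts (76237). There only Batf3 of these lists, at 28 raw counts, exceeded the limit of 24.4, so these shares were mostly background counts. The part of any of these lists in the Fcgr3 result was not tested.

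Genes most alike to each member over the 10 lanes were ranked by Pearson r of log2 normalized counts among the 283, a description in which all values share the lane's housekeeping factor and depth. Fcgr1 was most like Il10rb (r = 0.99), Abcf1 (0.966) and Ptafr (0.961). Fcgr2b was most like Ifih1 (0.968), Cd86 (0.958) and Nfatc1 (0.949). Fcgr3 was most like Tnfrsf13b (0.972), Cx3cr1 (0.967) and Tnfrsf17 (0.955), genes whose raw counts also spanned little, 2.65, 3.88 and 1.89 times from lowest to highest. Fcer1g was most like Myd88 (0.929), Ebi3 (0.926) and Ltbr (0.906), and Fcgrt most like Il16 (0.872) and Ddx58 (0.809). Fcgr4, the member with the lowest counts, had the weakest likeness, to Ccl24 (0.778), Mx1 (0.762) and Adal (0.691). No gene was shared between these sets. The coding sequences of the IgG receptor genes are closely related, and the probe sequences were not used here, so how far 1 probe also counts a related receptor's cDNA is unknown.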

How the data were processed

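Microglia of 5 control and 5 BDS pups were measured in 1 lane each. Per the labels' protocols, cDNA made from 2 ng of RNA went through 5 rounds of PCR before hybridization to the panel. The deposited raw table holds counts per probe without scaling (counting software not given in the sources used here). In the other deposited table the authors give scaled counts rounded to whole numbers, treated as a score, with the percent of samples above background, the fold (ratio of means) and a t-test p-value, per the file headers.

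A gene entered the tests when 4 or more of its 10 raw counts lay over the limit of their lane, the mean of the negative controls plus 2 SD (283 of 545). The reported fit used edgeR 4.0.16 on raw counts (two-sided quasi-likelihood F test, offsets from 6 housekeeping genes, no covariate), with Benjamini-Hochberg adjustment over the 283 genes. Standard errors came from dividing the log2 fold change by the root of F. Limma 3.58.1 and DESeq2 1.42.0 served as alternatives in R 4.3.3, and limma used a pseudocount of 1, on log2 values. Ratios used raw counts plus 1 and exact permutation tests. This fit was first tested on simulated data. No molecular identifiers were used, so amplified counts overstate the number of independent molecules.

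The members and lists were chosen with earlier results of these data known. Named genes are the 6 members, B2m, the housekeeping genes, up to 4 tested genes of smallest p in each signalling list and the 3 genes most alike to each member. Cybb, Fcer1a, Fcamr, Pigr and the marker genes were named after their values were seen. Some genes that the rule names are not reported here.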

Additional observations from a re-analysis of the deposited data

Results flagged for a closer look

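Among the values of single genes and ratios in each group of 5 lanes, 1 held a lane far from the other 4, out of 50 groups checked. Such a gap is met by chance in about 1 in 20 groups. B2m stood at 6371 normalized counts in BDS 17, where the next BDS lane, BDS 38, was at 3638.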

How the results depend on the processing

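Over 30 alternatives (29 for Fcgr4) Fcgr1 and Fcgr2b stayed higher and Fcgr3 lower. The count of genes called at an adjusted p under 0.05 was 0 in the reported edgeR fit. With edgeR it was 14 with positive control scaling, 12 without Gapdh, 15 without Polr1b and 10 of 197 genes above the limit in all 10 lanes. DESeq2 called 25 and limma with sample weights 85. The edgeR count ran from 0 to 48 with a pup left out: 48 without control 40, 19 without BDS 11. Fcgr3 passed without Gapdh (-2.09), without Polr1b (-1.96), above the limit in all lanes (-2.12), with DESeq2 (-2.15) and limma with weights (-1.30). With weights Fcgr1 (0.50) and Fcgr2b (0.92) passed too. With a pup left out Fcgr1 ran from 0.37 to 0.70, Fcgr2b from 0.51 to 0.94, Fcgr3 from -2.38 to -1.30, Fcgr4 from -0.44 to 0.046, Fcer1g from -0.34 to -0.076 and Fcgrt from -0.020 to 0.19. Without control 40 Fcgr1 and Fcgr3 passed, and without BDS 11 Fcgr3 did.

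Signs turned as follows, and the cause was not tested. Fcgrt was -0.050 with TMM, -0.059 with median-of-ratios scaling, -0.088 without Sdha, -0.071 with the authors' scores, -0.038 with weights, -0.043 with lane signal, -0.020 without control 52, -0.017 without control 52 and 69 and -0.095 without BDS 17 as well. Fcgr4 was 1.44 with positive controls, 0.16 with background subtracted, 0.14 with lane signal, 0.046 without control 52 and 0.077 without control 52 and 69. Fcer1g was 1.31 with positive controls, 0.16 with lane signal, 0.059 without control 52 and 69 and 0.014 without BDS 17 as well. Positive controls put Src at 0.72, Ptpn6 at 0.99 and Tgfbr2 at 0.85, and B2m was -0.030 without BDS 17.

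With a pseudocount of 10 Fcgr3 to Fcgr2b (-2.38), Fcgr4 to Fcgr2b (-1.17), Fcgr1 to Fcgr3 (2.18) and Fcgr3 to Fcer1g (-1.46) passed. With a pup left out the ratios ran from -2.86 to -2.04, -1.22 to -0.74, 1.55 to 2.77 and -1.72 to -1.11, Fcer1g to Fcgr2b from -1.14 to -0.73, Fcgr1 to Fcer1g from 0.44 to 1.05, Fcgr1 to Fcgr2b from -0.49 to -0.010 and Fcgrt to B2m from -0.42 to 0.054 (0.054 without control 1, 0.018 without BDS 17). Without control 40 all but Fcgr1 to Fcgr2b and Fcgrt to B2m passed. Over all 16 alternatives, background subtraction among them, Fcgr4 to Fcgr2b ran from -1.22 to -0.72. It passed only with the pseudocount of 10 and without control 40. No paired analysis was possible because the groups share no replicate numbers. Fcgr4 was the only member with a raw count under the limit of its lane, in control 52.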
